A study of Schizosaccharomyces pombe with 6 samples.

Results

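The nuclear tRNA genes that lie around the 3 centromeres of fission yeast, Schizosaccharomyces pombe, were described here by the small RNA reads that fell on them. A gene belonged to the group if it lay at kb 3735 to 3805 of chromosome I, kb 1590 to 1660 of chromosome II or kb 1060 to 1150 of chromosome III and if a small RNA peak of the deposited list overlapped it by at least 1 bp. SPCTRNALYS.10 and SPCTRNALYS.11 were left out by the rule. This gave 43 genes, on 43 peaks, out of 171 nuclear tRNA genes, 160 of which had a peak. The windows hold 56 tRNA genes, so a further 11 had no peak, and each of those 11 has an identical copy elsewhere that did. Centromere I contributed 5 genes, centromere II 21 and centromere III 17, and together they serve 15 amino acids.

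tRNA genes are transcribed by RNA polymerase III from promoter elements inside the gene, the A box and the B box, which are bound by the factor TFIIIC. A transcript is trimmed at its 5′ end by RNase P and at its 3′ end by tRNase Z, and in some genes an intron is spliced out before the CCA end is added. In fission yeast, tRNA genes stand between the central core and the outer repeats of the centromeres and at the outer borders of the heterochromatin, where several are known to act as barriers to its spread. The outer repeats between them are transcribed by RNA polymerase II, and Dicer cuts the double-stranded product into the small interfering RNAs of the RNA interference pathway.

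The study sequenced RNA of 18 to 28 nt, cut from a gel, in 6 libraries, 1 from each labelled sample. At 30 °C there were 1 library of wild-type strain spb80, 2 of wild-type strain spb75 and 1 of strain spb309, labelled dcr delta (dcr1 is the Dicer gene). Strain spb75 was also grown at 37 °C for 8 h and for 7 d, with 1 library each. All strains grew in the rich medium YES, and no label names a further allele. The labels do not say whether the 2 spb75 libraries at 30 °C came from separate cultures, so the spread between these libraries may be technical. The test used below, limma, draws the spread of each gene toward the trend of all tested peaks at its level. That trend had 6.83 to 15.5 degrees of freedom, against 1 or 2 from the gene's own libraries. The p-values therefore rest mostly on the trend.

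The reads summed over all 11033 peaks ranged from 5790804 (spb75 replicate 2) to 15723318 (spb75 replicate 1). Levels below are reads scaled to a common library size by the trimmed mean of M-values and expressed per 71.0 bp, the mean width of a peak, so that genes with peaks of different width can be set side by side. Reads over dcr1 itself were higher in the library labelled dcr delta than in each wild-type library at 30 °C, at all 5 peaks there. The peak over the widest stretch stood at 83.5 in it and at 18.2 to 32.3 in wild type at 30 °C. The peak with the highest log2 ratio, 3.21, stood at 99.3 against 6.37 to 12.5. None of those tested passed (limma, smallest adjusted p = 0.143). Which stretch of the gene the deletion removed is not stated, so dcr1 reads could not check the label, and the library is named by its label throughout. In the windows described here 40 of 82 tested peaks outside tRNA genes fell in it, where 72 of all 8274 tested peaks did so.

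Most of the 43 genes are copies of one another. They hold 17 distinct sequences, and 14 genes carry an intron. The gene sequence of 2 members, SPBTRNAMET.05 and SPCTRNAARG.10, occurs once in the assembly. The mature sequence of 33 members is also encoded on a chromosome arm, and that of 10 members occurs only in the windows, namely the 6 isoleucine genes with anticodon AAU, the 3 leucine genes with anticodon CAA and SPCTRNAARG.10. Small RNAs from 1 of several identical genes cannot be assigned to it, and a level below may be that of a family as much as of a locus. The unit of the deposited values is not stated in the sources used here. They are read here as reads, and their fractions as reads shared out among copies, from the values alone. On that reading, reads from the arm gene are part of the value for the 33 members with a copy on an arm.

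The gene sequences on which the results turn are shown first, 5′ to 3′ from the RefSeq assembly ASM294v3 with the anticodon in capitals. They are the 2 glutamate families, whose values at 37 °C are given below, the glycine gene with the highest level, an isoleucine gene of the family that is confined to the windows and the 2 genes with no second copy. SPATRNAGLU.03 lies at chrI:3765434-3765505 on the minus strand, SPBTRNAGLU.06 at chrII:1601491-1601562 (minus), SPBTRNAGLY.07 at chrII:1599337-1599407 (minus), SPATRNAILE.03 at chrI:3768290-3768363 (plus), SPBTRNAMET.05 at chrII:1598075-1598155 (minus) and SPCTRNAARG.10 at chrIII:1067092-1067164 (minus).
SPATRNAGLU.03: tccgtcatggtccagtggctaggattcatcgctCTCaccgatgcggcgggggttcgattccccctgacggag
SPBTRNAGLU.06: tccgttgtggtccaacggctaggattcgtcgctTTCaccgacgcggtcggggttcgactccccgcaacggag
SPBTRNAGLY.07: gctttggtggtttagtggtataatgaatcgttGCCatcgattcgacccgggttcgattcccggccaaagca
SPATRNAILE.03: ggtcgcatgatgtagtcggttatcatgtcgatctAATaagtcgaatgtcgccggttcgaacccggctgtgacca
SPBTRNAMET.05: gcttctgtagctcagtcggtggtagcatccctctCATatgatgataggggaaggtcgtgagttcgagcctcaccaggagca
SPCTRNAARG.10: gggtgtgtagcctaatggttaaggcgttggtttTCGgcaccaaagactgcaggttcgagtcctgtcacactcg

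The glutamate genes SPATRNAGLU.03 and SPBTRNAGLU.06 are both 72 bases long and differ at 13 positions, counted from 1 at the 5′ end. One of these, C34T, is the first anticodon base. SPATRNAILE.03 differs from the isoleucine gene SPATRNAILE.01 on the arm at G53A and C63T. SPBTRNAMET.05 differs from SPBTRNAMET.04 on the arm at G40A and T45C, both in the intron, and the mature sequences have 0 differences. The same holds for SPBTRNALYS.07 against the arm gene SPATRNALYS.04, with 5 differences, C40T, A43T, T44G, G46T and T47C, and 0 in the mature sequence.

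The B box core GTTCNANNC, where N is any base, read on the gene's own strand, was found in 40 of 43 members and in 108 of 115 tRNA genes outside the windows that had a peak. Over all 74-bp windows of the genome, 2.34% hold it on either strand. A run TTTT, the signal at which RNA polymerase III ends transcription, began within 25 bp past the 3′ end in 42 of 43 members. The 3 aspartate members, SPCTRNAASP.05, SPCTRNAASP.06 and SPCTRNAASP.07, are annotated as asparagine tRNA in the assembly. Their anticodon, GUC, reads aspartate codons, and the anticodon fitted the amino acid in the locus name in 43 of 43 members.

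Peaks followed the genes closely. Of 171 nuclear tRNA genes, 160 had a peak, against 17 to 32 when peak positions were moved by 200, 500 or 2000 bp either way. Among the 44 gene and peak pairs of the group, 40 peaks began before the mature 5′ end, by a median of 13 bp over all pairs. The median peak ended 3 bp past the 3′ end, and 12 ended inside the gene. The 3 alanine genes (anticodon AGC) stood apart: the peaks of SPBTRNAALA.09 and SPBTRNAALA.10 covered 42 bp of the 3′ part of a 74-bp gene, and that of SPCTRNAALA.12 covered 28 bp of the gene and 56 bp past its 3′ end. SPBTRNAASN.01 and SPBTRNAMET.05 shared 1 peak of 177 bp, and SPBTRNAVAL.07 had 2 peaks, 1 at each end.

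SPCTRNAPHE.05, a phenylalanine gene at the outer edge of centromere III, met the rule through a peak of a different kind. Its peak is 2782 bp wide, against 40 to 177 bp for the other members, and it also covers SPCTRNALYS.11 and 4 long non-coding RNAs. The level over this peak was 8460 in spb80, 2987 and 249 in the spb75 replicates at 30 °C, 370 in the library labelled dcr delta, 2089 after 8 h at 37 °C and 452 after 7 d. The range of the wild-type libraries at 30 °C encloses the other 3 values. How many of its reads come from the tRNA gene cannot be told apart, so group values are given without it where it matters.

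Mean levels in wild type at 30 °C ran from 671 to 79245. The glycine gene SPBTRNAGLY.07 was the highest on centromere II and in the group, with 113022 in spb80 and 102675 and 22038 in the spb75 replicates. It has 8 identical copies, 2 of them in the windows, and spb75 replicate 2 lay far below the other 2 libraries, with a mean of 79245 ± 49812 (SD, n = 3). The glutamate UUC genes SPBTRNAGLU.06 and SPBTRNAGLU.07 followed at 43863 ± 20859 (SD, n = 3).

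The leucine CAA family had a mean over its 3 genes of 22232 ± 7403 (SD, n = 3 libraries) and the glutamate CUC family, also 3 genes, of 21982 ± 11667 (SD, n = 3), so these neighbours in the order did not differ beyond their spread. Threonine AGU, with SPCTRNATHR.08 and SPCTRNATHR.09, stood at 17523 ± 2444 (SD, n = 3) with all 3 libraries close together. The highest member on centromere I was SPATRNAGLU.04, at 18967 ± 10072 (SD, n = 3), and on centromere III SPCTRNAGLU.10, at 28320 ± 15020 (SD, n = 3), both of the CUC family. These levels differ by peak width rather than by reads. In spb80 SPATRNAGLU.03, SPATRNAGLU.04 and SPCTRNAGLU.10 held 38195.5, 38195.5 and 38618 reads, on peaks of 123, 121 and 82 bp. The order of copies within this family is therefore not a difference between loci.

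The peak over the asparagine gene SPBTRNAASN.01 and the methionine gene SPBTRNAMET.05 stood at 10355 ± 2767 (SD, n = 3). SPCTRNAARG.10, an arginine gene with the anticodon UCG and no second copy, read 5300 in spb80 and 12245 and 5151 in the spb75 replicates, with replicate 1 well above the other 2 libraries. The aspartate, serine, isoleucine, tyrosine and lysine families had means of 5645 ± 1481, 4675 ± 1788, 3477 ± 969, 2602 ± 512 and 2486 ± 536 (SD, n = 3 each).

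Alanine, arginine ACG and valine AAC were the lowest families, with means of 1679 ± 658, 1344 ± 737 and 1072 ± 375 (SD, n = 3 each). The assembly holds 9, 8 and 8 copies of these genes, against 2 of the tyrosine and lysine genes, 1 of arginine UCG and 8 of glycine. On the reading that copies share reads, the order of families is thus one of levels per copy, not of family totals. The lowest members were SPCTRNAARG.12 on centromere III at 671 ± 184 (SD, n = 3) and the 5′ peak of SPBTRNAVAL.07 on centromere II at 691 ± 246 (SD, n = 3). On centromere I the lowest was SPATRNAARG.02 at 3417 ± 2503 (SD, n = 3). Peak width enters these levels too. The 5′ peak of SPBTRNAVAL.07 is 40 bp wide and covers only a part of a gene split over 2 peaks. In spb80 SPCTRNAALA.12 held 1405 reads on 84 bp and SPBTRNAALA.09 1412 reads on 42 bp, at levels of 983 and 1976. From the peak of SPBTRNAASN.01 and SPBTRNAMET.05 down, the spreads (mean ± SD) of neighbouring families overlap. The same holds from glycine down to threonine AGU.

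**Figure D1:**
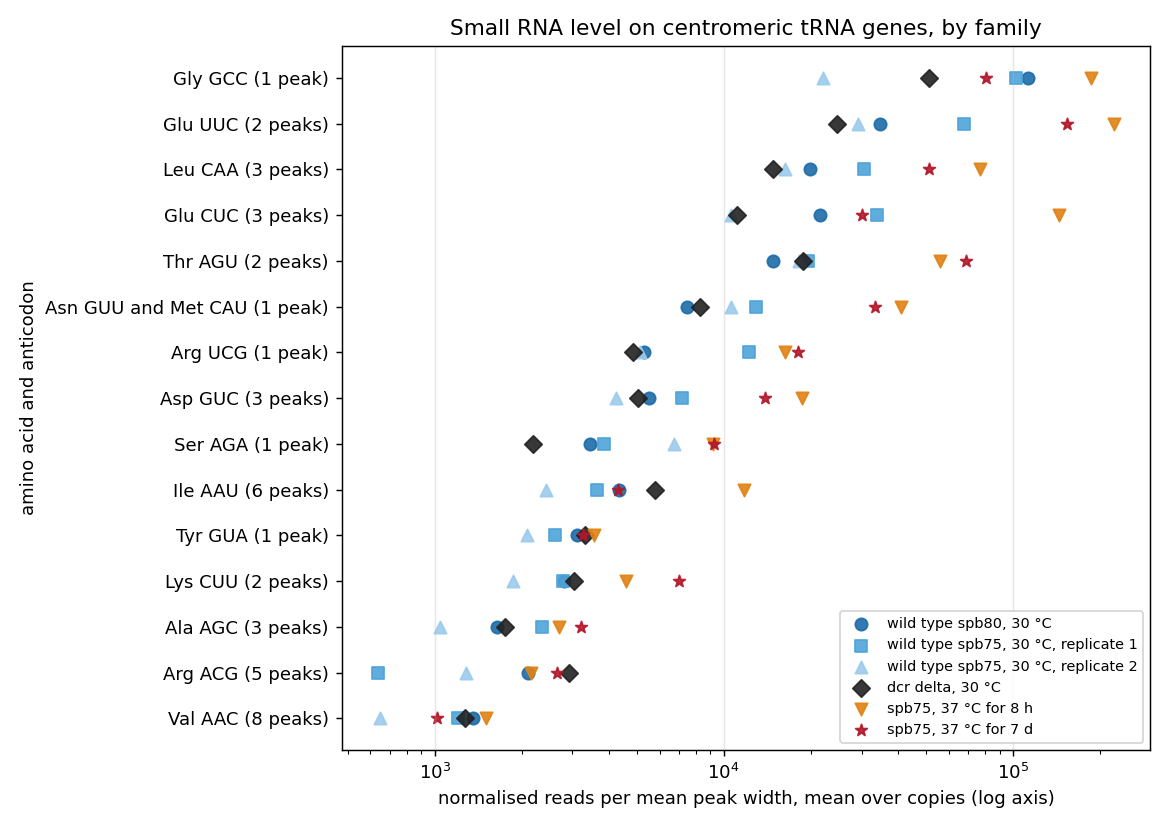
Level of each family of identical centromeric tRNA genes (rows, by amino acid and anticodon) in each of the 6 libraries, as normalised reads per mean peak width averaged over the copies, on a log axis. Glycine and the glutamate UUC genes lie highest and valine AAC lowest, with family means of 79245 and 1072 in wild type at 30 °C. These are levels per copy, not family totals. The wide peak over SPCTRNAPHE.05 is not drawn.

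Copies with long identical flanks had equal or nearly equal values. Of 14 pairs of identical genes whose flanks are also identical for at least 70 bases on both sides, 7 had equal reads in all 6 libraries, to within 0.001%, and the largest ratio of any such pair in any library was 1.15. Of 47 pairs with under 30 identical flanking bases on at least 1 side, 0 were equal in all 6 libraries. The largest ratio of such a pair in any library ran from 1.005 to 6.74, with a median of 1.33 over the pairs. The 6.74 was that of SPATRNAARG.02 to SPCTRNAARG.12 or SPCTRNAARG.13, and many of these pairs were nearly equal. SPATRNAGLU.03 and SPATRNAGLU.04 on either side of centromere I are an equal pair, as are SPBTRNALYS.07 and SPBTRNALYS.08, SPBTRNAGLU.06 and SPBTRNAGLU.07, and SPCTRNAARG.12 and SPCTRNAARG.13. Members of an equal pair are not separate measurements.

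Where flanks differ, so can the values. The arginine ACG copies are shown with the bases under or beside their peaks, those outside the gene in capitals. The gene itself is the same, and the bases before it differ. Between SPATRNAARG.02 and SPCTRNAARG.12 the 2 bases directly before the gene and the 2 directly past it are identical. SPATRNAARG.02 is at chrI:3736505-3736594 (plus strand), SPCTRNAARG.12 at chrIII:1092591-1092680 (minus) and SPBTRNAARG.07 at chrII:1647283-1647370 (minus).
SPATRNAARG.02: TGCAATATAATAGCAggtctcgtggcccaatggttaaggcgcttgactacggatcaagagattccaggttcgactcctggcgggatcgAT
SPCTRNAARG.12: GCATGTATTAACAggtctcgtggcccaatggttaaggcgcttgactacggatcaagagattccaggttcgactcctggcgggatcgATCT
SPBTRNAARG.07: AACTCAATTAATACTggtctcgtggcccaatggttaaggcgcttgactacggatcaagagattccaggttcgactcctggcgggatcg

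SPATRNAARG.02, which lies alone at the left edge of the centromere I window, read 5755 in spb80, 777 and 3720 in the spb75 replicates, 8215 in the library labelled dcr delta, 3114 after 8 h and 6740 after 7 d at 37 °C. SPCTRNAARG.12, with the same gene sequence, read 883, 569, 559, 1219, 1835 and 1442 in that order. SPATRNAARG.02 was higher in each of the 6 libraries. In reads, its ratio to SPCTRNAARG.12 was 6.74 in the library labelled dcr delta, 6.52 in spb80, 6.65 in spb75 replicate 2 and 4.67 after 7 d, but 1.37 in spb75 replicate 1 and 1.70 after 8 h. The 2 spb75 replicates at 30 °C therefore stood at opposite ends of the range. The ratio of SPBTRNAARG.07 to SPCTRNAARG.12 ran from 1.06 after 8 h to 1.9 in spb80, and that of SPBTRNAARG.06 from 1.02 to 1.33.

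The valine AAC copies are shown in the same way, for 3 of the leaders found among the 7 genes. SPBTRNAVAL.05 is at chrII:1600964-1601068, SPBTRNAVAL.06 at chrII:1619171-1619275 (both minus strand) and SPCTRNAVAL.09 at chrIII:1092924-1093022 (plus).
SPBTRNAVAL.05: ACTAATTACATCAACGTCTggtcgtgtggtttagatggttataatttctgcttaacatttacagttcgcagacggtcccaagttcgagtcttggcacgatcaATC
SPBTRNAVAL.06: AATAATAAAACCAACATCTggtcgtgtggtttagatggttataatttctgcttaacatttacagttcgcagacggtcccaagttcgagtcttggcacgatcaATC
SPCTRNAVAL.09: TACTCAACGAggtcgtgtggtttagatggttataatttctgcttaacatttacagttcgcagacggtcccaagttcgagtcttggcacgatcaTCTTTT

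In spb80, SPBTRNAVAL.05 held 1.95 times the reads of SPBTRNAVAL.06, and SPCTRNAVAL.09 held 1.96 times. In the library labelled dcr delta the ratios were 1.57 and 1.18. In the other 4 libraries they were 1.04 to 1.24 for SPBTRNAVAL.05 and 1.02 to 1.05 for SPCTRNAVAL.09. SPCTRNAVAL.12 stayed between 0.994 and 1.003 times SPBTRNAVAL.06 in all 6 libraries. At SPBTRNAVAL.07 the reads of the 5′ peak divided by those of the 3′ peak came to 0.736 in spb80, 0.260 and 0.365 in the spb75 replicates, 0.989 in the library labelled dcr delta, 0.196 after 8 h and 0.290 after 7 d. The spb80 library and the one labelled dcr delta were again the high ones. Their columns had 8 added to each value, subtracted here. After this, SPBTRNAVAL.05 held 1499 more reads than SPBTRNAVAL.06 in spb80 and 781 more in the library labelled dcr delta. The part of the added value in the ratios was not tested.

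**Figure D2:**
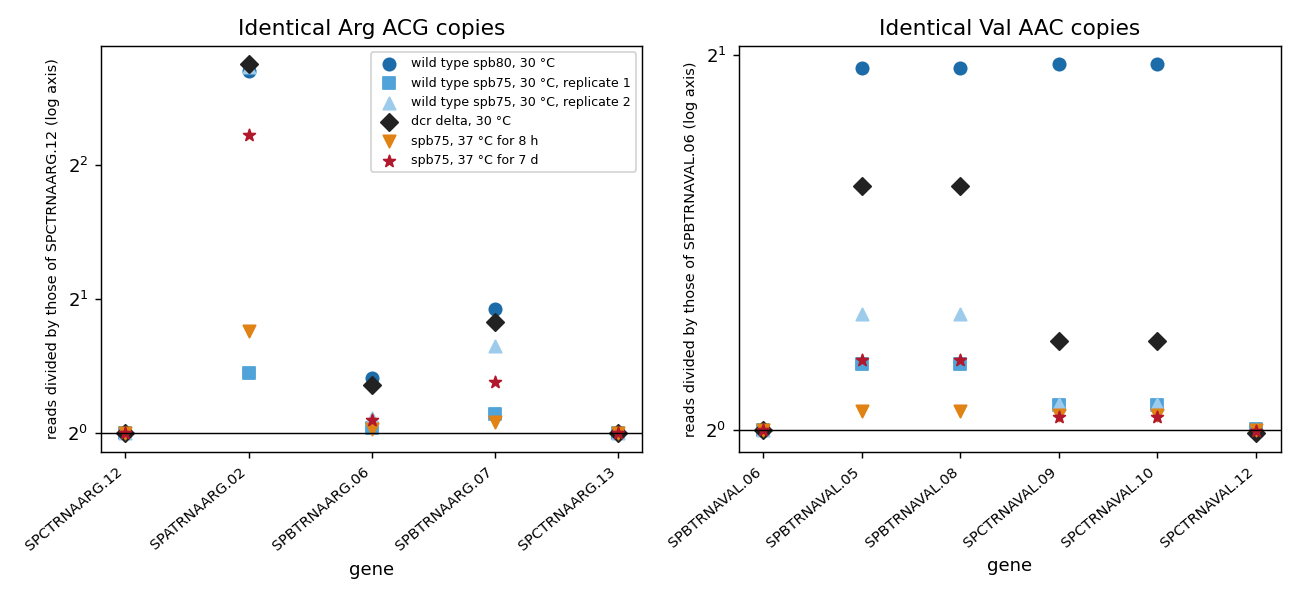
Reads on each copy of the arginine ACG gene (left) and of the valine AAC gene (right), divided by the reads on a reference copy in the same library, on a log axis with base 2; each symbol is 1 library. SPATRNAARG.02 reaches 6.74 and falls to 1.37, while the valine copies reach 1.96, in spb80.

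The first comparison asked whether these fragments depend on Dicer. None of the 43 member peaks passed the test between the library labelled dcr delta and the 3 wild-type libraries at 30 °C (limma, Benjamini-Hochberg adjusted over 8274 peaks; smallest adjusted p = 0.837), where 0.894% of all tested peaks passed. At an unadjusted p under 0.05 there were 0 members, against 6.22% of all peaks. The median log2 ratio of the members was 0.21 and that of all tested peaks −0.05, with 26 of 43 above 0. The library labelled dcr delta lay above all 3 wild-type libraries for 15 members and below them for 7, where 22.4% and 30.2% of all peaks did so. By centromere the medians were 0.67 (I, 5 peaks), 0.34 (II, 21 peaks) and −0.11 (III, 17 peaks). Without SPCTRNAPHE.05 that of centromere III was −0.002. The value for centromere I is that of SPATRNAILE.03, an isoleucine gene with identical copies on centromere II. Copies are not separate measurements, so these medians do not compare the centromeres. With 1 library labelled dcr delta and a median standard error of 0.62 on the log2 scale, a log2 ratio of 1 in a single gene lay within 2 standard errors.

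The arginine ACG and isoleucine genes were among the highest. SPATRNAARG.02 had a log2 ratio of 1.69 ± 0.996 (SE, adjusted p = 0.851), SPBTRNAARG.07 of 1.15 ± 0.62 (SE, adjusted p = 0.837) and SPBTRNAARG.06 of 1.07 ± 0.56 (SE, adjusted p = 0.837), by limma. Leaving out 1 wild-type library took the ratio of SPATRNAARG.02 to between 0.83, without spb75 replicate 1, and 2.27, without spb80. For SPBTRNAARG.06 the levels were 1205, 600 and 620 in wild type and 1603 in the library labelled dcr delta, which was the highest of the 4. The 6 isoleucine genes had ratios of 0.67 to 0.91, and SPATRNAILE.03 read 5996 in the library labelled dcr delta against 4821, 4241 and 2594 in wild type. The dcr delta value lay above all 3 wild-type values here too, without passing the test. Between the wild-type strains, spb80 against spb75, SPATRNAARG.02, SPBTRNAARG.07 and SPBTRNAARG.06 had log2 ratios of 1.76, 1.17 and 0.98. The isoleucine genes had 0.48 to 0.66 there. The spb80 and dcr delta columns were also those with 8 added. How far the dcr delta ratios reflect genotype rather than what these columns share was not tested.

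The glutamate, leucine and serine genes lay lower. SPCTRNASER.09, the serine gene with anticodon AGA, read 2193 in the library labelled dcr delta against 3438, 3861 and 6725 in wild type, below all 3. Its log2 ratio was −1.03 ± 0.62 (SE, limma adjusted p = 0.851). SPCTRNAGLU.10 had −0.83 ± 0.88 (SE, limma adjusted p = 0.929), and its level of 14273 lay inside the wild-type range of 13634 to 43652. SPCTRNAPHE.05, on its wide peak, had −2.32 ± 1.51 (SE, limma adjusted p = 0.859), and it passed when spb75 replicate 2 was left out (−3.76, limma adjusted p = 0.0210).

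Many peaks outside tRNA genes in the same windows fell in the library labelled dcr delta, most of them on centromere III. Of 33, 24 and 25 tested peaks outside tRNA genes in the windows of centromeres I, II and III, 8, 8 and 24 fell in the library labelled dcr delta, with a log2 ratio over all 82 of −1.10 at the median. Over all 8274 tested peaks, 72 fell. On centromere III several fallen peaks have identical ratios, such as −6.94 and −6.62, so its 24 peaks are not all separate measurements. The nearest fallen peak to a member lay 1150 bp from SPBTRNAARG.06, over SPNCRNA.359 and SPNCRNA.5254 (chrII:1603413-1603748). It read 346, 450 and 216 in wild type and 3.06 in the library labelled dcr delta (log2 ratio −6.32). At 1192 bp from SPATRNAGLU.03, the peak over SPNCRNA.3679, SPNCRNA.231 and SPNCRNA.232 (chrI:3761774-3764218) read 2491, 4372 and 1696 in wild type and 11.0 in the library labelled dcr delta (log2 ratio −7.78). SPATRNAGLU.03 itself read 18248, 28766 and 8961 in wild type and 9409 in the library labelled dcr delta, inside the wild-type range. A test of the difference between the tRNA genes and these neighbours was not run. SPATRNAARG.02 lay farthest from a fallen peak, at 16252 bp, and the other members at 7942 bp or less.

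**Figure D3:**
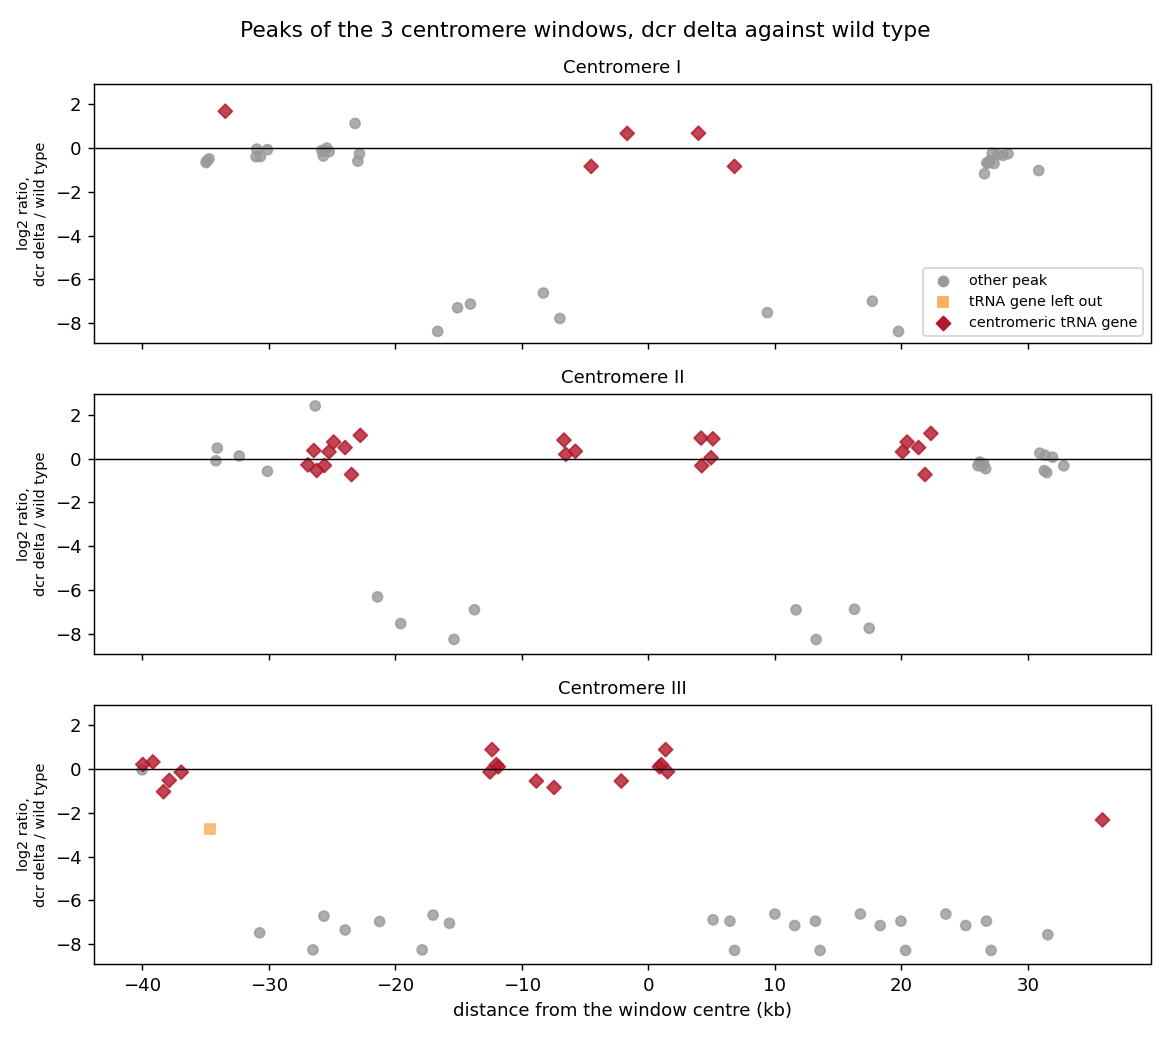
Log2 ratio of the library labelled dcr delta to the mean of the 3 wild-type libraries at 30 °C for each tested peak (vertical), by distance of the peak from the middle of its window in kb (horizontal), for centromeres I, II and III. The centromeric tRNA genes lie between −2.32 and 1.69, and the 40 fallen peaks lie below −6.

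The second comparison asked how the fragments changed after 8 h at 37 °C in strain spb75. All 43 member peaks had a log2 ratio above 0, with a median of 1.65 against −0.01 over all tested peaks, and 41 lay above both spb75 libraries at 30 °C, where 38.1% of all peaks did so. None passed the test (limma, smallest adjusted p = 0.215), where 0.665% of all peaks passed. At an unadjusted p under 0.05 there were 9 members, all higher, against 15.4% of all peaks. The 115 tRNA peaks outside the windows gave a median of 1.84, with 115 of 115 above 0 and 0 passing. Scaling to total reads took the member median to 0.56 and that of all peaks to −1.11, and 26 of 43 members then stayed above 0.

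The glutamate CUC genes had the highest ratios. SPATRNAGLU.03 read 28766 and 8961 in the spb75 replicates at 30 °C and 123091 after 8 h, a log2 ratio of 2.94 ± 1.37 (SE, limma adjusted p = 0.319), and its pair SPATRNAGLU.04 had the same ratio. SPCTRNAGLU.10 had 2.92 ± 1.498 (SE, limma adjusted p = 0.372). The 8 h library lay above both 30 °C libraries for all 3 genes. The UUC genes SPBTRNAGLU.06 and SPBTRNAGLU.07 read 67721 and 29072 at 30 °C and 223458 after 8 h, a log2 ratio of 2.33 ± 1.65 (SE).

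The 6 isoleucine genes had ratios of 1.86 to 2.05. SPBTRNAILE.06 read 3417 and 2393 at 30 °C and 11871 after 8 h, with an unadjusted p of 0.0314 and an adjusted p of 0.268 by limma. The arginine genes SPCTRNAARG.12 and SPCTRNAARG.13 read 569 and 559 at 30 °C and 1835 after 8 h, a log2 ratio of 1.70 ± 0.64 (SE, limma adjusted p = 0.215). Both 30 °C libraries were close to each other and the 8 h library was well above them. The aspartate and leucine families had ratios of 1.75 to 1.76 and of 1.79.

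Valine, tyrosine and alanine genes were among the lowest. The 5′ peak of SPBTRNAVAL.07 had a log2 ratio of 0.31 ± 0.62 (SE, limma adjusted p = 0.840), with 684 after 8 h against 672 and 454 at 30 °C. SPBTRNATYR.02, with an intron, had 0.61 ± 0.78 (SE, limma adjusted p = 0.733), with 3574 against 2619 and 2082. SPBTRNAVAL.05 and its equal pair SPBTRNAVAL.08 had 0.64 ± 0.69 (SE, limma adjusted p = 0.685). SPCTRNAALA.12 had 0.70, the other valine genes with 1 peak had 0.80 to 0.83, and the 3′ peak of SPBTRNAVAL.07 had 0.96. With total-read scaling the ratios of the 5′ peak of SPBTRNAVAL.07, of SPBTRNATYR.02 and of SPBTRNAVAL.05 turned to −0.79, −0.48 and −0.46, so their direction rests on the scaling.

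The third comparison asked the same after 7 d at 37 °C. The median of the members was 0.99, against −0.01 over all tested peaks and 1.28 for the 115 tRNA peaks outside the windows. SPCTRNAPHE.05 was the 1 member below 0. None of the 43 passed (limma, smallest adjusted p = 0.513), where 0% of all tested peaks passed. At an unadjusted p under 0.05 there were 4 members, all higher, against 9.4% of all peaks. For 30 of 43 members the 7 d library lay above both 30 °C libraries, as for 33.9% of all peaks. The count above 0 rested on spb75 replicate 2: without it, the median was 0.46 and 30 of 43 lay above 0, and without replicate 1 these were 1.36 and 43.

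SPATRNAARG.02 had the highest ratio after 7 d, 1.99 ± 0.92 (SE, limma adjusted p = 0.513), on 777 and 3720 at 30 °C and 6740 at 7 d. This rank rested on spb75 replicate 1: without it the ratio was 0.86, below the 1.92 of SPCTRNATHR.08, and without replicate 2 it was 3.11. Threonine followed in the fit of all libraries. SPCTRNATHR.08 read 20514 and 19078 at 30 °C, 58966 after 8 h and 72447 after 7 d, so both hot libraries lay far above a close pair of controls. Its 7 d ratio was 1.87 ± 1.29 (SE, limma adjusted p = 0.730), and SPCTRNATHR.09 had the same ratio. The lysine genes SPBTRNALYS.07 and SPBTRNALYS.08 read 2781 and 1868 at 30 °C, 4590 after 8 h and 7011 after 7 d.

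At the low end, SPCTRNAPHE.05 had −0.93 ± 0.99 (SE, limma adjusted p = 0.847), SPBTRNAVAL.05 and SPBTRNAVAL.08 had 0.18 ± 0.68 (SE, limma adjusted p = 0.964) and the 5′ peak of SPBTRNAVAL.07 had 0.17 ± 0.63 (SE, limma adjusted p = 0.964). All 8 valine peaks lay between 0.17 and 0.25. Their levels after 7 d lay between the 2 spb75 replicates at 30 °C, as at SPBTRNAVAL.05 with 1049 against 1228 and 700.

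**Figure D4:**
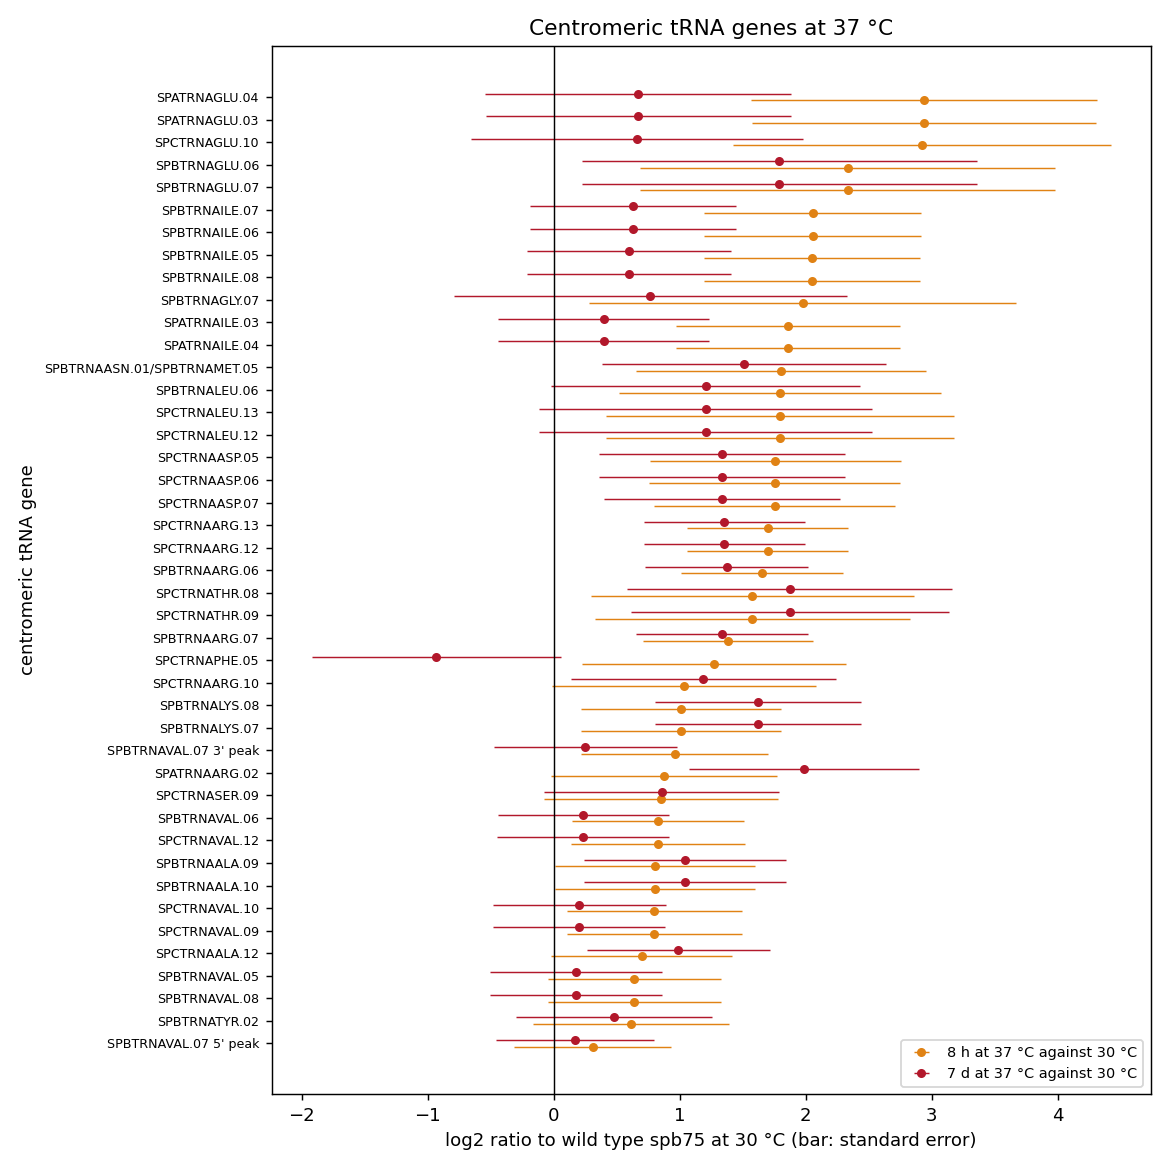
Log2 ratio of each centromeric tRNA peak at 37 °C to the 2 spb75 libraries at 30 °C (points), with its standard error (bars), after 8 h and after 7 d, ordered by the 8 h value. All 43 points for 8 h lie above 0, from 0.31 to 2.94, and 42 of 43 for 7 d do.

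The 2 times at 37 °C were also compared directly. The 30 °C pair gave 1 residual degree of freedom, against 15.5 prior degrees of freedom from the trend over all tested peaks. No member passed (limma, smallest adjusted p = 0.522), where 0.302% of all peaks passed, and 0 members against 10.6% of all peaks had an unadjusted p under 0.05. The median was −0.46, with 10 of 43 above 0, and turned to 0.15 with total-read scaling. The 3 glutamate CUC genes were lowest, at −2.27, −2.27 and −2.26 (SE 1.48 to 1.61, limma adjusted p = 0.638 to 0.679). SPATRNAGLU.03 fell back from 123091 to 25565, inside the 30 °C range. The UUC genes stood at 223458 and 153403, both above the 30 °C libraries, with a log2 ratio of −0.54 ± 1.83 (SE). Whether the 2 glutamate families differ in this respect was not tested. SPCTRNAPHE.05 came next at −2.21 and then the isoleucine genes at −1.46 to −1.42, and the highest were SPATRNAARG.02 at 1.11 ± 1.06 (SE, limma adjusted p = 0.769) and the 2 lysine genes at 0.61 ± 0.95 (SE, limma adjusted p = 0.881).

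The 2 wild-type strains at 30 °C gave a measure of how far such values move without a change of genotype at RNAi genes or of temperature in the labels. No member passed between spb80 and spb75 (limma, smallest adjusted p = 0.490), where 0.0846% of all peaks passed. 1 member, SPCTRNAPHE.05, had an unadjusted p under 0.05, against 6.56% of all peaks. The median was 0.18 and all peaks stood at 0.00, and spb80 lay above both spb75 libraries for 21 of 43 members, against 33.2% of all peaks. The highest ratios were those of SPCTRNAPHE.05 at 3.29 ± 1.12 (SE, limma adjusted p = 0.490), SPATRNAARG.02 at 1.76 ± 0.94 (SE, limma adjusted p = 0.816) and SPBTRNAGLY.07 at 1.25 ± 1.95 (SE, limma adjusted p = 0.986). The lowest were the peak of SPBTRNAASN.01 and SPBTRNAMET.05 at −0.65 ± 1.09, SPCTRNAARG.10 at −0.58 ± 1.02 and SPCTRNASER.09 at −0.57 ± 0.89 (SE, limma adjusted p = 0.986 to 0.989). Without spb75 replicate 1 the ratios of these highest members were 5.08, 0.63 and 2.36, and without replicate 2 they were 1.502, 2.89 and 0.14.

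As a share of all reads over peaks, the members other than SPCTRNAPHE.05 took 6.44% in spb80, 8.54% and 6.88% in the spb75 replicates, 5.60% in the library labelled dcr delta, 15.2% after 8 h and 13.5% after 7 d. The mean over the 3 wild-type libraries at 30 °C was 7.29% ± 1.11 (SD, n = 3). Wilson 95% intervals, which cover counting error only, were 5.58 to 5.62% for the library labelled dcr delta, 15.17 to 15.21% for 8 h and 13.43 to 13.48% for 7 d. Both 37 °C libraries lay above all 30 °C libraries and the library labelled dcr delta below them. This order changed with the denominator: of the reads outside rRNA genes the same genes took 13.3% there, against 10.1% ± 0.939 (SD, n = 3) in wild type at 30 °C.

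The part that the centromeric genes took of all tRNA reads stayed in a narrow range. Leaving out the peaks over SPCTRNAPHE.05 and the 2 genes excluded by the rule, it was 22.6% in spb80, 22.9% and 21.7% in the spb75 replicates, 22.8% in the library labelled dcr delta, 22.7% after 8 h and 23.1% after 7 d. The whole range over 6 libraries was thus under 1.5 percentage points, while the tRNA total outside the windows ran from 19.0% of all reads in the library labelled dcr delta to 51.7% after 8 h. On the reading that identical copies share reads, most of these members are tied to arm genes in these shares. They are the 33 of 43 with a copy on an arm, less SPCTRNAPHE.05.

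**Figure D5:**
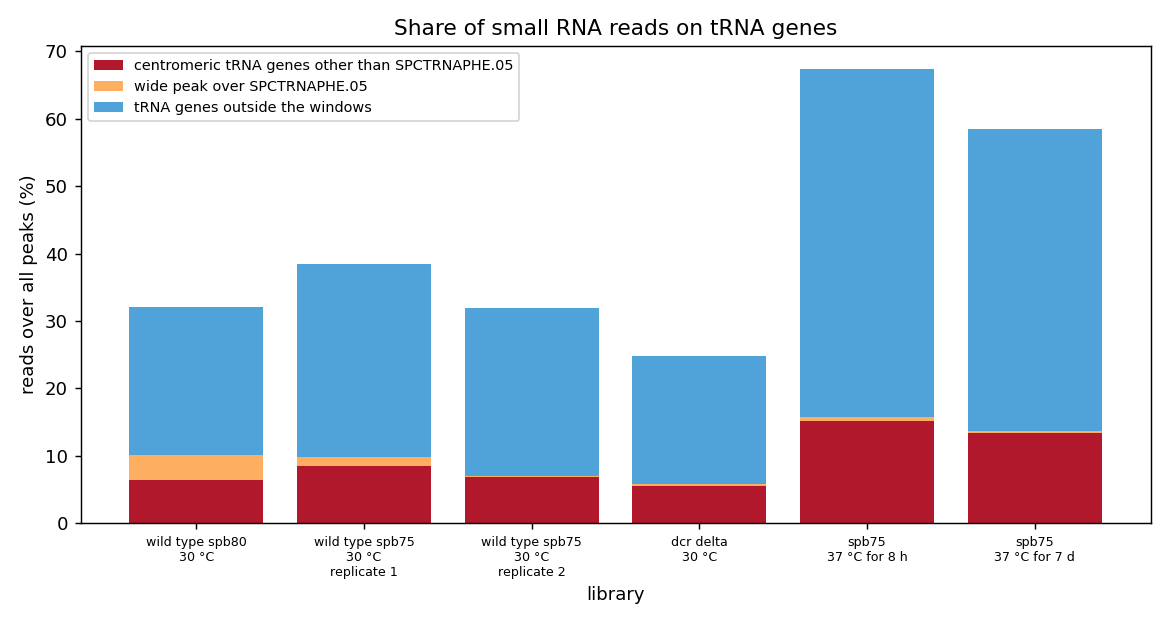
Percent of the reads over all peaks that fell on centromeric tRNA genes other than SPCTRNAPHE.05, on the wide peak over SPCTRNAPHE.05 and on tRNA genes outside the windows (stacked bars from 0), for each of the 6 libraries. The lowest part of the bars runs from 5.60% in the library labelled dcr delta to 15.2% after 8 h, and the top part from 19.0% to 51.7%.

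Set beside the 115 other tRNA peaks, the members had a median level of 4264 against 4655 in spb80, 3259 against 4720 and 2393 against 4754 in the spb75 replicates, 4871 against 5029 in the library labelled dcr delta, 11391 against 14951 after 8 h and 4426 against 9776 after 7 d. The member median was the lower in all 6 libraries, by 0.05 (dcr delta) to 1.14 (7 d) on the log2 scale. In spb80 and the library labelled dcr delta this order turned when peaks with identical values were counted once, with members then higher by 0.0051 and 0.0019, and in the latter also without SPCTRNAPHE.05.

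Genes for tRNA transcription and processing were read from the same fits. The list held 41 genes, 40 of them found in the annotation under the names used and 27 with a peak, among them subunits of TFIIIC, TFIIIB and RNA polymerase III, the La protein gene sla1, splicing, CCA-adding and methylating enzymes and the boundary genes epe1 and bdf2. In none of the 5 comparisons did a peak of the list pass, in either direction, among 34 to 37 tested. At an unadjusted p under 0.05 there were 0 of 35 in the dcr delta comparison, 6 of 36 at 8 h, 3 of 37 at 7 d, 3 of 36 between the times and 1 of 34 between strains, against 6.22%, 15.4%, 9.4%, 10.6% and 6.56% of all peaks in that order, so the share at 8 h was near that of all peaks.

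Several of these genes have more than 1 tested peak, and the values below are those of single peaks, many with few reads. They describe fragments of 18 to 28 nt. Whether these follow the expression of the gene was not tested. In the dcr delta comparison, bdf2, a bromodomain gene of heterochromatin borders, had the highest ratio on the list, 1.21, and rpc17, of RNA polymerase III, had 0.79. The lowest were pmt1, the tRNA methyltransferase gene, at −0.79 and a peak of epe1 at −0.71, whose other peaks had −0.36 and −0.01. At 8 h a peak of rpc1, the largest RNA polymerase III subunit, had 2.74 and its others 0.79 and 0.74, while bdf2 had 1.49. The 2.74 rested on 6 and 3 reads in the spb75 replicates at 30 °C and 20 after 8 h, before scaling. The lowest at 8 h were the peak of sfc6, of TFIIIC, at −2.04 and pmt1 at −1.91. Before scaling, pmt1 held 41 and 16 reads at 30 °C and 4 after 8 h, and sfc6 held 400, 85 and 28.

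At 7 d a peak of tbp1, the TATA-binding protein gene, had 1.81 and its other 4 had 0.34 to 1.23, and the peaks of cca1 had 0.46 to 1.39. The 1.81 rested on 21 and 19 reads in the spb75 replicates at 30 °C and 38 at 7 d, before scaling. A peak of sla1 had −1.28, but its other 3 had −0.20 to 0.05, and pmt1 had −0.91. Between the 2 times sfc6 had 1.93. The sla1 peaks ran from −1.18 to 1.70 there and the rpc1 peaks from −1.42 to −0.23. Between strains rpc19 had 1.08 and the peaks of tbp1 ran from −0.73 to 0.88. The lowest were epe1, with −1.27 to −0.97 over its 3 tested peaks, and a peak of cca2 at −1.26, whose other tested peak had 0.18. Peaks of sla1, tbp1 and cca2 thus had values of opposite sign within 1 gene.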

How the data were processed

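Small RNA of 6 libraries was measured as signal per peak, which the authors deposited as 1 table of 11033 peaks with a column per library. CASAVA 1.8, Bowtie 0.9.9.1 and MACS are named per the submitters' processing notes. Their roles, like the build, are not stated in the sources at hand. The unit is not stated; from the values alone the signal is close to reads: with 1 read worth 1 (1.48 in the dcr delta column), 73.8% to 92.4% of values were whole, and fractions are taken to mark reads shared among copies. A value of 8, found added throughout 2 columns (spb80 and dcr delta) was subtracted. Peaks were placed on ASM294v3 (RefSeq). Depth is known only as reads over peaks. Signal was scaled by the trimmed mean of M-values over 6 libraries, written in R 4.3.3, and log2(signal + 1) was fitted with limma 3.58.1 (trend, 2-sided), dropping the 25% of peaks with the lowest mean, with p-values adjusted by Benjamini-Hochberg across every tested peak and a threshold of 0.05. The dcr delta fit used 4 libraries, the 8 h, 7 d and strain fits 3 each, and the fit between times 4. An arm of 1 library is assumed to vary like the others. The fits were tested on simulated data in which all peaks had a common spread. How they behave for peaks with a larger spread was not tested. The genes named are, for each comparison, the 3 highest and 3 lowest members and any that passed, the highest and lowest level per centromere, genes with a single copy, and, of the processing list, the 2 highest and 2 lowest; others are copies of these or were chosen after their values were seen. The members, lists and tests were chosen with earlier results of these data known. Alternatives were other scalings, filters, pseudocounts, weights, controls, overlaps and left-out libraries.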

Additional observations from a re-analysis of the deposited data

How the results depend on the processing

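With 1 library in each arm but spb75 at 30 °C, single genes could be tested only at a low precision, and fits of the heat and strain comparisons that leave out an spb75 replicate give a value with no test. No paired analysis was possible because only the spb75 libraries at 30 °C carry replicate numbers, so no groups compared share 2 of them. The count of members that passed stayed at 0 in all 5 comparisons under every alternative that gives a test but one: leaving out 1 wild-type library gave 0 to 1 in the dcr delta comparison, the 1 being SPCTRNAPHE.05 without spb75 replicate 2. The members' median log2 ratio kept within the spread of the control libraries except under total-read scaling, which gave 0.56 at 8 h (main 1.65) and 0.15 between 7 d and 8 h (main −0.46), where the median of all peaks stood at −1.11 (main −0.01) and 0.58 (main −0.03). Leaving out 1 library in turn moved the median from −0.10 to 0.32 (dcr delta), 1.37 to 1.71 (8 h), 0.46 to 1.36 (7 d) and −0.17 to 0.66 (spb80 against spb75); the dcr delta median was −0.10 without spb75 replicate 2. With total reads 26 of 43 members lay above 0 at 8 h (main 43) and 31 at 7 d (main 42), and without spb75 replicate 2 there were 30 at 7 d. Among the 3 highest and 3 lowest members of each comparison, the only single genes followed under each alternative, those that turned were the 5′ peak of SPBTRNAVAL.07 (−0.79 at 8 h and −0.32 at 7 d with total reads, −0.12 to 0.45 at 7 d without 1 spb75 replicate, −0.093 with 3 wild-type controls), SPBTRNATYR.02 (−0.48 at 8 h with total reads), SPBTRNAVAL.05 (−0.46 and −0.31 with total reads, −0.23 to 0.58 at 7 d without 1 spb75 replicate, −0.12 with 3 controls), SPCTRNAPHE.05 at 7 d (−2.72 to 0.86) and SPCTRNAARG.10 between strains (−1.21 to 0.041); the cause was not tested. The share of reads on all members rose from 10.1, 9.76, 7.05, 5.78, 15.7 and 13.6% to 14.9% (spb80), 12.8% and 9.79% (spb75 replicates), 13.8% (dcr delta), 18.9% (8 h) and 17.9% (7 d) when reads on rRNA were left out of the total, and in spb80 it was 6.44% without the SPCTRNAPHE.05 peak. Keeping the added 8, fitting both heat libraries at once and leaving out SPCTRNAPHE.05 were chosen after seeing the data. With the added 8 kept, the dcr delta median was 0.07 and the strain median −0.08. The number of all tested peaks that passed, used above as background, moved by over 1.5 times between alternatives: from 1 to 301 at 8 h (main 55), 0 to 126 at 7 d (main 0), 0 to 177 between the times (main 25) and 2 to 35 between strains (main 7), the highest each time with scaling factors computed without tRNA and rRNA peaks, under which limma's prior degrees of freedom at 8 h were 66.2 (main 13.8). The smallest adjusted p of a member over these alternatives was 0.150 at 8 h, 0.326 at 7 d, 0.223 between the times and 0.109 between strains.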
